A study of Homo sapiens with 8 samples.

Results

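The genes described here are 10 targets of the transcription factor NRF2 and members of the aldo-keto reductase family: AKR1C1, AKR1C2, AKR1C3, AKR1B10, NQO1, GCLM, TXNRD1, HMOX1, SRXN1 and SLC7A11. They were chosen by name, and 9 of the 10 were read from array probes carrying that name, out of 43317 genes on the array. AKR1C2 was not analysed here. The measurements come from 8 Agilent 2-colour arrays of 1 slide. Each array compared transfected cells, labelled with Cy5, with mock cells of the same line, labelled with Cy3 and described by the labels as having received no transfection. Established human cancer lines were used. PC3, a line from prostate cancer, received 1 of 4 miRNAs: miR-99a-3p or miR-100-3p, or either arm of miR-150 (miR-150-5p, miR-150-3p). FaDu, from a hypopharyngeal squamous cell carcinoma, received one or the other arm of miR-99a. PANC-1 is from pancreatic cancer and received si-FOXQ1-1 or si-FOXQ1-2, siRNAs against FOXQ1. There was 1 array per condition, all in the same dye orientation, so a ratio describes 1 pair of RNAs and carries no test, and dye and transfection cannot be told apart.

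NRF2, encoded by NFE2L2, is held in the cytoplasm and degraded through KEAP1 and the CUL3 ubiquitin ligase. Oxidants and electrophiles release it, after which it pairs with small MAF proteins on antioxidant response elements and raises enzymes that make glutathione, reduce thioredoxin and quinones, break down heme and reduce carbonyls. BACH1 competes for the same elements and represses HMOX1 most of all. The pathway is known for being constitutively active in part of squamous carcinomas, where AKR1C and AKR1B10 transcripts can become very abundant. SLC7A11 and HMOX1 also respond to other stress pathways, among them ATF4, the transcription factor of the amino acid response.

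The mature sequences of the miRNAs allow their seeds to be compared. RefSeq sequences (GRCh38.p14) were found for 3 of the 5 miRNAs transfected, and bases 2 to 8, the seed, are in capitals:
miR-99a-3p: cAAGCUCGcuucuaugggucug
miR-100-3p: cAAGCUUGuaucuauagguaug
miR-99a-5p: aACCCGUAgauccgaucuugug
They lie at chr21:16539138-16539159 on the plus strand, chr11:122152240-122152261 on the minus strand and chr21:16539101-16539122 on the plus strand. Against miR-99a-3p, counted from its 5′ end, miR-100-3p differed at 5 of 22 positions, of which 1, C7U, lies in the seed. miR-99a-5p comes from the other arm of the miR-99a hairpin.

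AKR1C1 and AKR1C2 are near-identical paralogs, so a probe for one can bind transcripts of the other. This is visible in the probe of AKR1C1 with the most 5′ position, whose first 29 bases are set below against AKR1C2 just after its transcription start, chr10:5003808-5003836 on the minus strand of GRCh38.p14, with the base that differs in capitals:
AKR1C1 probe: aatggattcgaaataTcagtgtgtgaagc
AKR1C2: aatggattcgaaataCcagtgtgtgaagc
The difference, counted from the first base of the probe, is T16C. The values of AKR1C1 below come from another probe, its brightest, which was not aligned to AKR1C2, and the share of AKR1C2 in the signal of either probe was not tested. The probe of GCLM held a run of at least 20 bases found on the same strand in the probe of 1 other gene, whereas the other probes of the 9 genes shared no run of that length with a probe of another gene. For runs of at least 15 bases on the same strand, the GCLM probe shared with probes of 10 other genes.

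A gene counted as detected where the scanner software placed its brightest probe well above background in Cy3, in Cy5 or in both. This gave 19184 to 20919 genes per array, and the median log2 ratio over detected genes lay between -0.03 and 0.02. No gene spot was saturated. The 75th percentile of the Cy3 signal ran from 135 to 276 between arrays, so signals are compared within an array only. The scanner software gives each ratio an error, with a median over detected genes of 0.21 to 0.22 on the log2 scale. This error covers the spot, not the culture. FOXQ1 checked the labels of the siRNA arrays: its signal was 4887 in mock and 1092 in transfected PANC-1 cells with si-FOXQ1-1 and 4557 and 1046 with si-FOXQ1-2, log2 ratios of -2.16 and -2.12, the lowest of all genes measured in both channels of each array. Of the squamous markers TP63, KRT5, KRT14, KRT6A, DSG3 and SFN, 6 of 6 were well above background in the FaDu mock channels, while TP63, KRT5, KRT14 and DSG3 were not in any PC3 or PANC-1 channel. In PC3 mock cells HOXB13 and TMPRSS2 were above background throughout, FOLH1 in 2 of 4 channels and KLK3 in none, and in PANC-1 mock cells KRT19, KRT7, SOX9 and GATA6 were, but not PDX1 or ONECUT1. The same 4 of 6 pancreatic markers were above background in every PC3 and FaDu mock channel, so they do not set PANC-1 apart.

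The mock channels did not all stand for separate samples. Over 10838 bright probes, Cy3 channels were compared by a robust SD, taken from the median absolute deviation of their difference. This measure gives little weight to the probes that differ most. Between the PC3 miR-99a-3p and miR-100-3p arrays it was 0.0502 on the log2 scale, and 0.0458 between the miR-150-5p and miR-150-3p arrays. The FaDu channels differed by 0.0554 and the PANC-1 channels by 0.0525. Repeated spots of 1 probe within an array had a median ordinary SD of 0.0496 to 0.0605. On these unlike measures each pair differed, for the bulk of bright probes, by about the noise of the array. Each pair was therefore counted as 1 mock sample. Across these pairs, PC3 mock channels differed by a robust SD of 0.117 to 0.120. The mock cells were thus taken as 2 samples of PC3, 1 of FaDu and 1 of PANC-1, and arrays of a pair share their control.

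The 9 genes differed widely between the lines before any transfection. FaDu mock cells held far more AKR1C1, HMOX1 and NQO1 than PC3 mock cells, and AKR1C1, AKR1C3 and AKR1B10 were not well above background in PANC-1. Mock levels are log2 Cy3 signals minus the 75th percentile of their array and were compared within a gene only, by limma across 21496 genes with Benjamini-Hochberg adjustment. A call required an adjusted p under 0.05 and a difference of at least 1. Between FaDu and PC3, 5 of the 9 genes were called higher in FaDu and 0 lower (at an unadjusted p under 0.05 it was 0 as well), where 20.5% and 21.0% of all genes tested were called in these directions. The median difference of the 9 genes was 1.37, that of all genes 0.12. Between PANC-1 and PC3, 1 was called higher and 3 lower in PANC-1, against 16.6% and 16.3% of all genes. Between PANC-1 and FaDu, 6 were called lower in PANC-1 and 0 higher (all 9 differences were below 0), against 18.3% and 20.0% of all genes. As FaDu and PANC-1 had 1 mock sample each, the test assumes that they vary as the PC3 mock cells did, and the design gives no independent cultures beyond that.

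AKR1C1 encodes a reductase that inactivates progesterone. Its mock level was 0.16 and -0.20 in the PC3 samples, 5.73 in FaDu and -4.49 in PANC-1. FaDu exceeded PC3 by 5.75 ± 0.22 (SE, n = 1 and 2, limma adjusted p = 0.000636), a 53.8-fold difference. PANC-1 was dim in both channels, so that PC3 was at least 9.40-fold and FaDu at least 506-fold above it. No test was run on these bounds. The unbounded difference was -4.47 for PANC-1 minus PC3 (limma adjusted p = 0.00103). For PANC-1 minus FaDu it was -10.2 (limma adjusted p = 0.000900). The order FaDu, PC3, PANC-1 held in every channel. The sizes depended on the processing: after normexp, loess and Aquantile the differences were 5.14 (FaDu minus PC3), -1.53 (PANC-1 minus PC3) and -6.67 (PANC-1 minus FaDu), and the probe of AKR1C1 that was dim in PC3 gave 3.83, -0.51 (not called) and -4.34, so the bounds hold for the brightest probe on the scanner's processed signals.

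AKR1C3, which makes testosterone from androstenedione, stood at 3.17 and 3.05 in PC3 and at 3.65 in FaDu, with PANC-1 at -3.48 and not above background. The FaDu and PC3 levels differed by 0.54 (95% interval 0.09 to 0.99), under the difference set for a call. PC3 exceeded PANC-1 by at least 82.5-fold and FaDu exceeded it by at least 120-fold, on the scanner's processed signals. The unbounded difference, on which the test was run, was -6.59 for PANC-1 minus PC3 (limma adjusted p = 0.000489). For PANC-1 minus FaDu it was -7.13 (limma adjusted p = 0.000900). After normexp, loess and Aquantile, PANC-1 minus PC3 was -4.04 and PANC-1 minus FaDu -4.49, smaller than the bounds and still called. AKR1B10, a retinal and carbonyl reductase, was low in all lines, at -1.11 and -1.15 in PC3, -1.44 in FaDu and -4.40 in PANC-1, where it was not above background. PC3 exceeded PANC-1 by at least 4.37-fold and FaDu exceeded it by at least 3.52-fold. The unbounded difference was -3.27 for PANC-1 minus PC3 (limma adjusted p = 0.000937). For PANC-1 minus FaDu it was -2.96 (limma adjusted p = 0.00175). After normexp, loess and Aquantile these 2 differences were -0.98 and -0.85, and neither was called. FaDu and PC3 differed by -0.31 (95% interval -0.73 to 0.11).

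HMOX1, the heme oxygenase, followed another order. Its mock level was 3.76 and 3.60 in PC3, 8.03 in FaDu and 7.23 in PANC-1. FaDu was higher than PC3 by 4.36 ± 0.16 (SE, n = 1 and 2, limma adjusted p = 0.000635) and PANC-1 higher than PC3 by 3.55 (limma adjusted p = 0.000955). FaDu and PANC-1 differed by -0.81 (95% interval -1.34 to -0.27, PANC-1 minus FaDu), under the size set for a call.

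NQO1, a quinone reductase, stood at -0.30 in both PC3 samples, at 2.68 in FaDu and at -0.30 in PANC-1. FaDu exceeded PC3 by 2.98 (limma adjusted p = 0.000898) and PANC-1 fell short of FaDu by as much, while PANC-1 and PC3 differed by 0.00 (95% interval -0.42 to 0.42). TXNRD1, the cytosolic thioredoxin reductase, was higher in FaDu than in PC3 by 1.45 (limma adjusted p = 0.00382) and SLC7A11, the cystine transporter, by 1.37 (limma adjusted p = 0.00541). PANC-1 minus FaDu was -2.41 for TXNRD1 and -1.87 for SLC7A11, both called (limma adjusted p = 0.00253 and 0.00480). GCLM, the modifier subunit of the first enzyme of glutathione synthesis, and SRXN1, which repairs peroxiredoxins, were not called in any contrast, with differences between -0.23 and 0.53.

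**Figure D1:**
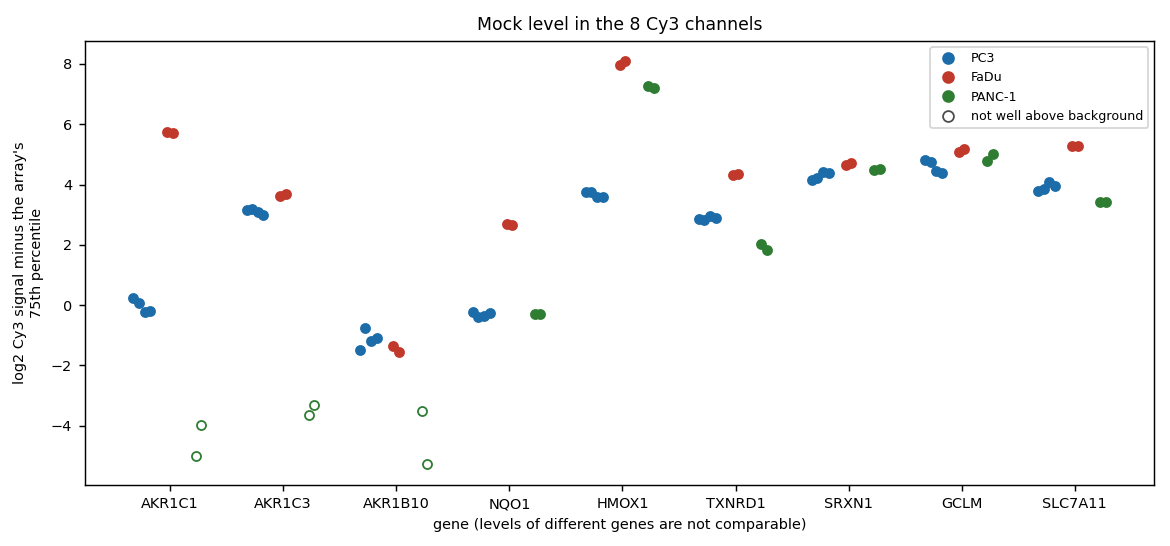
Mock level of the 9 genes in the 8 Cy3 channels, as log2 signal minus the 75th percentile of the array, with 1 point per channel and colours for the cell line. Open points were not well above background. FaDu lies above PC3 for AKR1C1, HMOX1, NQO1, TXNRD1 and SLC7A11, and the 3 aldo-keto reductases are open in PANC-1.

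Of the 8 transfections, miR-99a-3p in FaDu cells gave the 9 genes their median ratio farthest from 0. A gene is said to be past the fold when its log2 ratio of transfected over mock was at least 1 or at most -1. In FaDu cells with miR-99a-3p, 6 of the 9 detected genes were past the fold below mock (AKR1C1, HMOX1, AKR1C3, SLC7A11, SRXN1 and TXNRD1) and 1 above it (AKR1B10). Among all detected genes of that array 9.37% were past the fold below mock and 8.25% above it, and among genes well above background in both channels, as the 9 were, 5.48% and 7.68%. The median log2 ratio of the 9 genes was -1.43, that of all detected genes -0.03. Because the array measures bulk RNA, fewer cells of a type and less RNA per cell cannot be told apart.

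On the other arrays few of the 9 genes were past the fold. In PC3 cells with miR-99a-3p it was 0 of 9, where 4.23% of all detected genes were past the fold above and 7.39% below mock. With miR-100-3p it was 0 above and 1 below (0.987% and 3.34% of all), the 1 being AKR1B10. With miR-150-5p it was 0 above and 2 below, AKR1C1 and AKR1C3 (0.664% and 4.49% of all), and both were short of the fold after normexp and loess or with the PC3 mock channels averaged. With miR-150-3p AKR1B10 was above and SRXN1 below (2.69% and 6.68% of all). In FaDu cells with miR-99a-5p it was 0 of 9 (0.851% and 4.86% of all). In PANC-1 cells 6 of the 9 genes were detected, and 0 were past the fold with si-FOXQ1-1 (0.905% and 3.31% of all) or si-FOXQ1-2 (0.412% and 3.29% of all). Most calls below mock on these arrays were of genes dim in Cy5, with 2.77% of them measured in both channels in FaDu cells with miR-99a-5p and 45.9% in PC3 cells with miR-99a-3p.

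**Figure D2:**
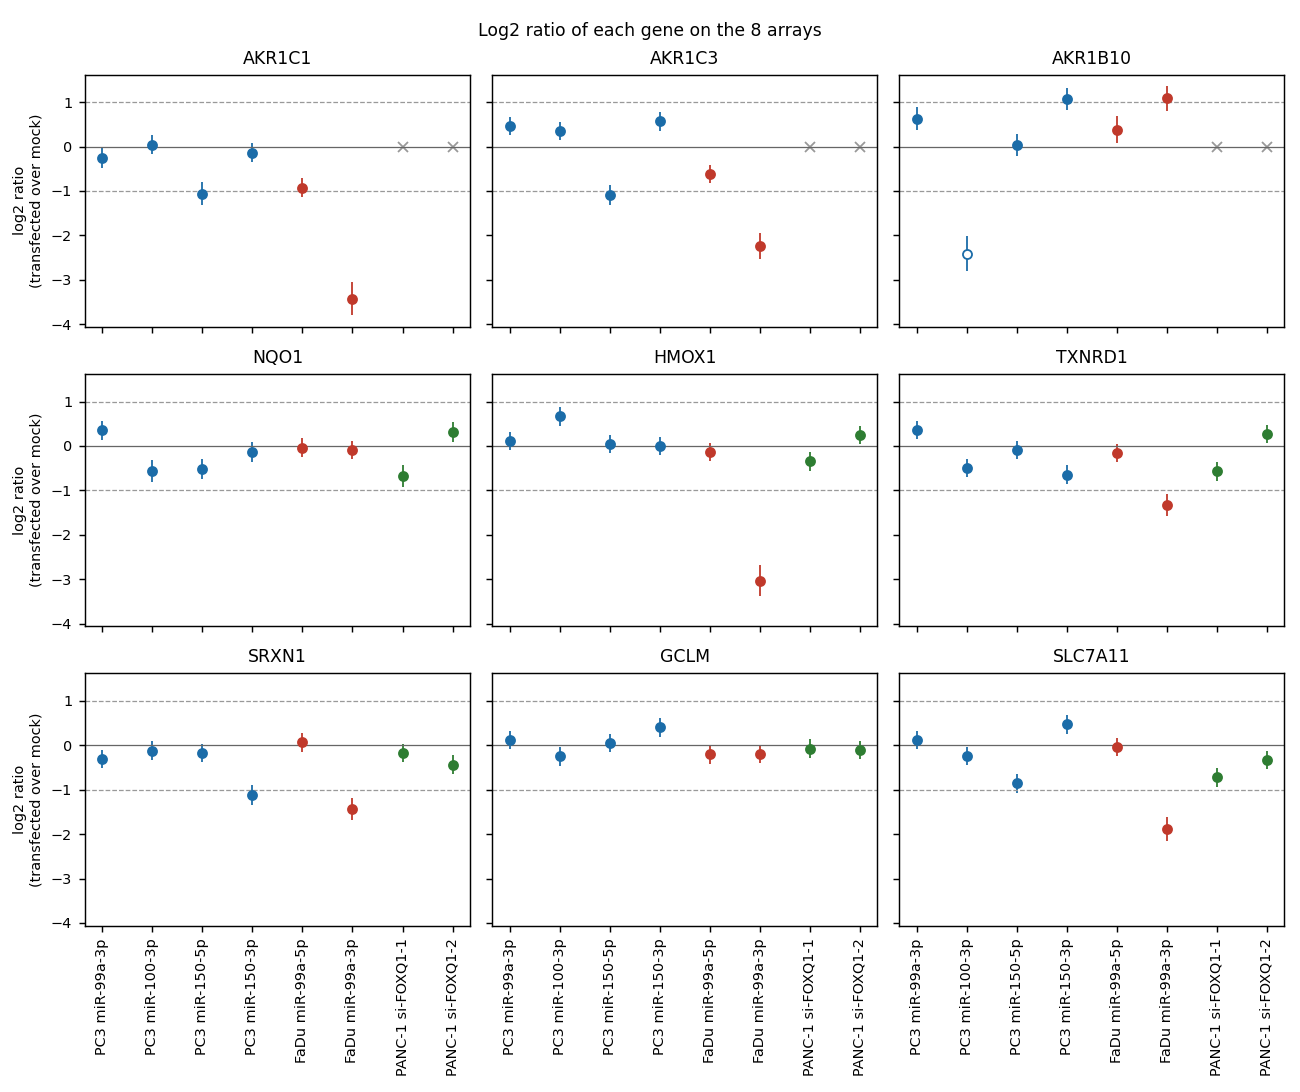
Log2 ratio of transfected over mock for each gene (panels) on the 8 arrays, coloured by line, with the scanner's error of the ratio as bars. Dashed lines mark -1 and 1, the open point was not well above background in Cy5, and crosses mark genes detected in neither channel. The lowest points of AKR1C1, HMOX1, AKR1C3 and SLC7A11 all belong to FaDu cells with miR-99a-3p.

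The AKR1C genes had some of the lowest ratios. AKR1C1 signal in FaDu cells was 12007 in mock and 1120 in miR-99a-3p cells, a log2 ratio of -3.42 ± 0.38 (scanner error, 1 array), the 10th lowest of 16482 genes measured in both channels. With miR-99a-5p it was 7265 in mock and 3831 in transfected cells, a ratio of -0.92 ± 0.22, which was short of the fold but the 46th lowest of 15771 genes. The PC3 signals were 153 to 323 in mock cells. PC3 ratios were -0.26 with miR-99a-3p, 0.04 with miR-100-3p, -1.06 with miR-150-5p and -0.14 with miR-150-3p. Only the miR-150-5p array was past the fold in PC3, at rank 112 from the lowest of 17629 genes, and it was -0.55 after normexp and loess and -0.66 with all PC3 mock channels averaged as the control, neither past the fold.

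AKR1C3 had signals of 2943 in mock and 626 in FaDu cells with miR-99a-3p, a ratio of -2.23 ± 0.29, and of 1667 and 1086 with miR-99a-5p, a ratio of -0.62. In PC3 the ratios were 0.46 with miR-99a-3p, 0.35 with miR-100-3p, -1.09 with miR-150-5p and 0.57 with miR-150-3p. The ratio with miR-150-5p was -0.93 after normexp and loess and -0.96 with the PC3 mock channels averaged, both short of the fold. Thus AKR1C3, like AKR1C1, had its lowest PC3 ratio with miR-150-5p and was lower than mock on both FaDu arrays, but it stood above mock in PC3 with the other 3 miRNAs. Both genes were below detection on the PANC-1 arrays and have no ratio there.

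AKR1B10 behaved unlike the AKR1C genes. Its signal went from 78.9 to 168 in FaDu cells with miR-99a-3p, a ratio of 1.09 ± 0.28, and reached 225 in PC3 cells with miR-150-3p, a ratio of 1.07 ± 0.24. Against the mean of the line's mock channels these ratios were 0.59 and 0.76, short of the fold. With miR-100-3p in PC3 cells it was 103 in mock and not well above background in transfected cells, at least 3.28-fold lower on the scanner's signals. That ratio was -1.03 after normexp and loess and -0.84 with the averaged mock control, both smaller than the bound and the second short of the fold. The other PC3 ratios were 0.62 with miR-99a-3p and 0.03 with miR-150-5p, and that of FaDu cells with miR-99a-5p was 0.38. The gene was dim, with a signal of 53.4 in the mock channel of FaDu cells with miR-99a-5p. Its close paralog AKR1B15 had a ratio of 1.01 in FaDu cells with miR-99a-3p, and binding of either transcript to the other's probe was not tested.

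Several probes of the same gene allow a check. AKR1C1 has 3 probes, at chr10:5005636-5005695, chr10:5011936-5011995 and chr10:5019910-5019969 of hg19, the build of the array annotation, the last being the brightest. Their ratios in FaDu cells with miR-99a-3p were -3.96, -2.76 and -3.42, and with miR-99a-5p -1.03, -0.21 and -0.92. The middle probe was detected on the FaDu arrays only. The 2 probes of AKR1B10, at chr7:134225799-134225858 and chr7:134225939-134225998, were both above mock in FaDu cells with miR-99a-3p, at 1.09 and 0.46, so that only the brightest was past the fold, while both gave 1.07 in PC3 cells with miR-150-3p. The other genes have 1 probe each, AKR1C3 at chr10:5147789-5147848, NQO1 at chr16:69744274-69744333, GCLM at chr1:94352810-94352869, TXNRD1 at chr12:104732949-104733008, HMOX1 at chr22:35790122-35790181, SRXN1 at chr20:627563-627622 and SLC7A11 at chr4:139085433-139085492.

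**Figure D3:**
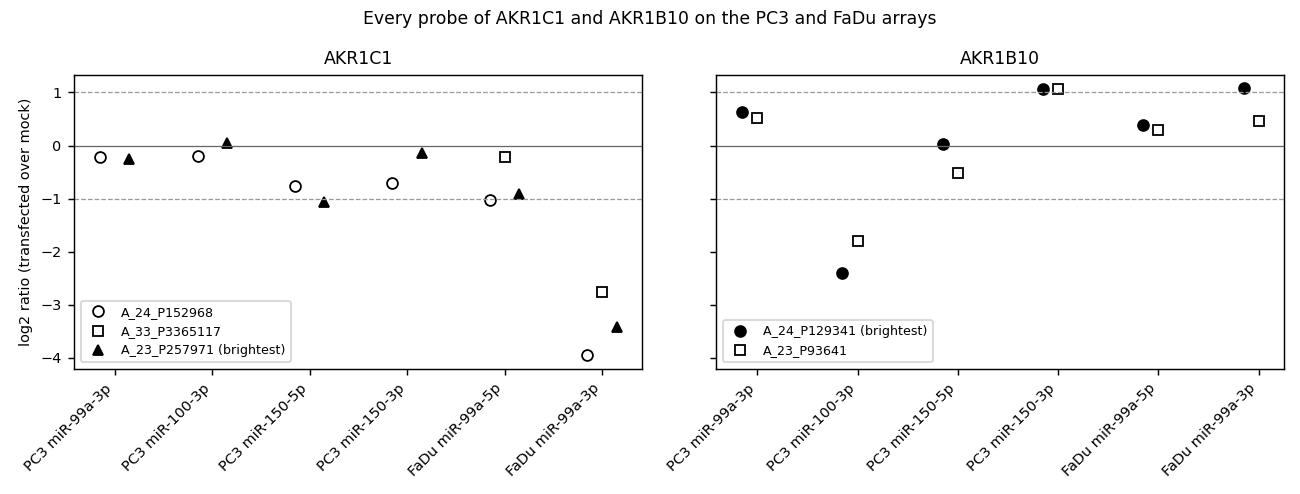
Log2 ratio of every detected probe of AKR1C1 and AKR1B10 on the PC3 and FaDu arrays, 1 symbol per probe, filled for the brightest. The 3 AKR1C1 probes lie between -3.96 and -2.76 in FaDu cells with miR-99a-3p.

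HMOX1 showed the second lowest ratio of the 9 genes. In FaDu cells its signal was 62966 in mock and 7680 with miR-99a-3p, a ratio of -3.04 ± 0.35, or 8.20-fold lower. This probe is printed 10 times on each array, and the SD of the ratio between its spots was 0.0285 there. With miR-99a-5p, measured against the same mock sample, HMOX1 was 33841 and 30646, a ratio of -0.14. In PC3 the ratios were 0.10 with miR-99a-3p, 0.67 with miR-100-3p, 0.05 with miR-150-5p and 0.00 with miR-150-3p. In PANC-1 they were -0.35 and 0.25. HMOX1 was therefore far below mock on 1 array, and on the other 7 within 0.67 of it.

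Of the thioredoxin and peroxiredoxin genes, SRXN1 was past the fold below mock on 2 arrays. Its signal was 6090 in mock FaDu cells and 2261 with miR-99a-3p, a ratio of -1.43 ± 0.24, and 4799 and 2213 in PC3 with miR-150-3p, a ratio of -1.12 ± 0.23. On the other 6 arrays it lay between -0.44 and 0.06. TXNRD1 had signals of 4673 and 1857 in FaDu cells with miR-99a-3p, a ratio of -1.33 ± 0.24. Its PC3 ratios were 0.36 with miR-99a-3p, -0.50 with miR-100-3p, -0.10 with miR-150-5p and -0.65 with miR-150-3p. In PANC-1 it was -0.57 with si-FOXQ1-1 and 0.27 with si-FOXQ1-2.

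Of the glutathione genes, SLC7A11 had signals of 8981 in mock and 2419 in FaDu cells with miR-99a-3p, a ratio of -1.89 ± 0.27. It came near the fold in PC3 with miR-150-5p, at -0.86, and in PANC-1 with si-FOXQ1-1, at -0.72, and was 0.12, -0.24 and 0.47 in PC3 with miR-99a-3p, miR-100-3p and miR-150-3p. It was -0.33 with si-FOXQ1-2 and -0.04 in FaDu with miR-99a-5p. GCLM moved least: its ratio was -0.19 in FaDu cells with miR-99a-3p, from 8396 to 7356, and lay between -0.25 and 0.40 on all 8 arrays. As its probe shares runs with probes of other genes, transcripts of those genes may add to its signal, which was not tested.

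NQO1 also did not follow the lowered genes. It was 1452 in mock and 1366 in FaDu cells with miR-99a-3p, a ratio of -0.09 ± 0.20, although it was abundant in FaDu mock cells relative to the other lines. It was -0.57 and -0.52 in PC3 with miR-100-3p and miR-150-5p, 0.35 with miR-99a-3p and -0.14 with miR-150-3p. The siRNA arrays gave -0.67 and 0.31 in PANC-1, where mock signals were 125 and 118. The siRNAs, which lowered FOXQ1 alike, thus gave ratios of opposite sign for NQO1, TXNRD1 and HMOX1. That difference rests on 1 array each and was not tested.

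**Figure D4:**
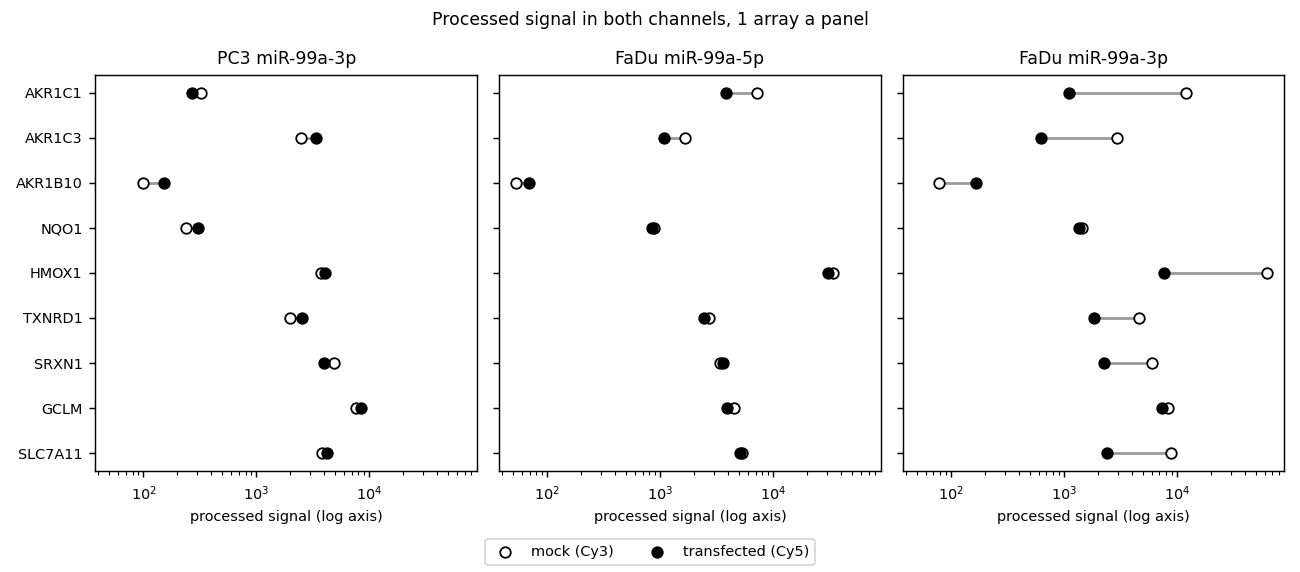
Processed signals of the 9 genes in mock cells (Cy3, open) and transfected cells (Cy5, filled) on 3 arrays, on a log axis. In FaDu cells with miR-99a-3p the filled point lies left of the open one for AKR1C1, AKR1C3, HMOX1, TXNRD1, SRXN1 and SLC7A11 by a ratio of at least 1 on the log2 scale, and right of it for AKR1B10.

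The regulators of the pathway were read beside the targets. The probe read for NFE2L2 was not well above background in either channel of any array and gave no ratio. A dim probe does not show that the transcript was absent. KEAP1 lay between -0.44 and 0.04 on the 8 arrays. BACH1, the repressor, was -0.96 in FaDu cells with miR-99a-3p, from 893 to 458, and between -0.42 and 0.57 elsewhere. On that FaDu array 3 of the 8 detected genes of a list of 9 regulators were past the fold below mock, against 9.37% of all detected genes. They were MAFF, a small MAF protein, at -1.54, SQSTM1, which binds KEAP1, at -1.43, and NFE2L1, an NRF2 relative, at -1.19. The median of the regulators was -0.89 there. On the other 7 arrays 0 of them were past the fold, where 0.412% to 4.23% of all detected genes were above and 3.29% to 7.39% below mock. In the mock cells KEAP1 and BACH1 were not called in any contrast. Of the 8 regulators tested 3 were called higher in FaDu than in PC3, against 20.5% of all genes. In PANC-1 2 were called higher than in PC3, against 16.6% of all genes. Between PANC-1 and FaDu 1 was called higher and 1 lower in PANC-1, against 20.0% and 18.3% of all genes.

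Other NRF2 targets had ratios on both sides of mock on that array, most of them below. Of 30 listed genes, all detected, 14 were past the fold below mock and 2 above it in FaDu cells with miR-99a-3p, where 9.37% and 8.25% of all detected genes were, and 24 of the 30 had a ratio below 0. Their median was -0.76, against -0.03 for all detected genes. The lowest were SLC3A2, the partner chain of SLC7A11, at -2.06, SLC6A9, a glycine transporter, at -1.84 and IDH1, a cytosolic dehydrogenase that makes NADPH, at -1.83. GCLC, the catalytic partner of GCLM, was -1.20 and GSR, the glutathione reductase, -1.18, both named after their values were seen. The 2 above mock were the carbonyl reductases CBR3 at 1.60 and CBR1 at 1.09, likewise. On the other arrays at most 2 of these 30 genes were past the fold. These were PIR and ALDH3A1 at -1.16 each with miR-100-3p in PC3, FTH1, the ferritin heavy chain, at -1.53 and ALDH3A1 at -1.16 with miR-150-3p in PC3, and ABCC3, an efflux transporter, at -1.08 with miR-99a-5p in FaDu. On these arrays, in this order, 3.34%, 6.68% and 4.86% of all detected genes were past the fold below mock. Of the other aldo-keto reductases 5 were detected in FaDu cells with miR-99a-3p, 1 past the fold, AKR1B15. Their median was 0.27.

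The amino acid response was lower on the same array. Of ATF4 and 9 of its targets, 10 of 10 were past the fold below mock in FaDu cells with miR-99a-3p. Among all detected genes of that array it was 9.37%. On each of the other 7 arrays it was 0 of 10, where 3.29% to 7.39% of all detected genes were past the fold below mock. The median of the 10 genes in FaDu cells with miR-99a-3p was -2.28. DDIT3, a stress-induced transcription factor, was -3.67, TRIB3, a pseudokinase, -3.04 and ASNS, the asparagine synthetase, -2.82, with ATF4 itself at -1.36. These genes were abundant in FaDu and PANC-1 mock cells. In FaDu 10 of 10 were called higher than in PC3 by the same limma fit, against 20.5% of all genes. Their median difference was 2.36. In PANC-1 mock cells 9 of 10 were called higher than in PC3, against 16.6% of all genes, with a median of 1.97. In PANC-1 their median ratio was -0.49 with si-FOXQ1-1 and -0.33 with si-FOXQ1-2. Their part in the values of SLC7A11 and HMOX1 was not tested, nor was it in those of the other NRF2 targets, SLC3A2 and SLC6A9 among them.

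Interferon-response genes were above mock on 2 arrays, that of FaDu cells with miR-99a-3p, where 7 of the 9 genes were past the fold, and that of PC3 cells with miR-150-3p, where 2 were. In PC3 cells with miR-150-3p 8 of 8 were past the fold above mock, against 2.69% of all detected genes. Their median was 2.28, led by IFI6 at 3.30, MX1 at 3.12 and IFIT1 at 2.76. In FaDu cells with miR-99a-3p it was 5 of 8, against 8.25% of all detected genes. They were led by IFIT3 at 2.68, IFIT2 at 2.03 and MX1 at 2.02, and the median of the 8 was 1.28. On the other arrays their medians lay between -0.45 and 0.61. The squamous markers of FaDu moved too: 4 of 6 were past the fold below mock in FaDu cells with miR-99a-3p, against 9.37% of all detected genes. Ratios of the 6 ran from -2.83 to -0.35, with a median of -1.41. With miR-99a-5p it was 0 of 6, against 4.86% of all detected genes below mock. The part of either list in the ratios of the 9 genes was not tested.

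**Figure D5:**
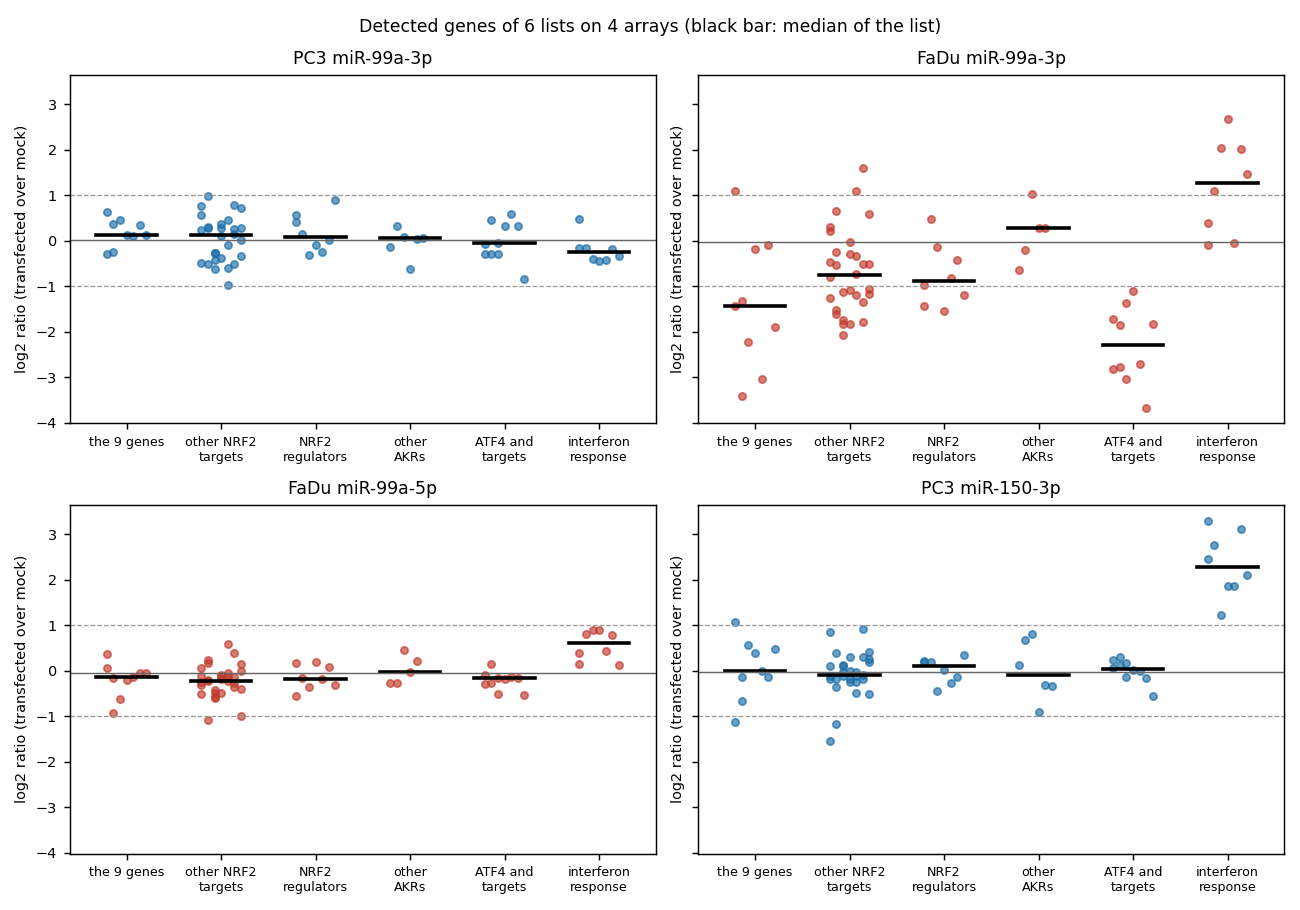
Log2 ratios of the detected genes of 6 lists on 4 arrays, 1 point per gene, with the median of each list as a black bar, the median of all detected genes as a grey line and dashed lines at -1 and 1. In FaDu cells with miR-99a-3p the 10 points of ATF4 and its targets all lie below -1, and the median of the other NRF2 targets is -0.76.

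The genes whose ratios over the 8 arrays were most like the median of the 9 genes were sought among 13237 other genes measured in both channels of all arrays. They were the transcript BX648603 (Pearson r = 0.991 over 8 arrays), ATF4 (0.987), FBXL2, an F-box protein (0.986), the transcript ENST00000443279 (0.984) and HOMER2, a scaffold protein (0.980). The 8 points share 4 mock samples, and the array of FaDu cells with miR-99a-3p lies far from the others. Without it r was 0.938, 0.926, 0.963, 0.888 and 0.874 for the same genes, which had been picked on all 8. The ratios in FaDu cells with miR-99a-3p were -0.50 for BX648603, -0.96 for FBXL2, -1.63 for ENST00000443279 and -1.22 for HOMER2.

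Promoters of 7 of the 10 genes were in the RefSeq table (GRCh38.p14), with 250 bases before and 50 after the start, and were searched on both strands for the core antioxidant response element, TGACNNNGC. It was found in 3 of the 9 promoters of these genes, as against 13.3% of 35116 promoters. The 3 belong to GCLM and TXNRD1 only, TXNRD1 being counted with 2 promoters, and the share was not tested. The matches are shown, on the strand of the gene, because the element is the one NRF2 is known to recognise. The element, in capitals, lies 34 bases before the start of GCLM, a gene on the minus strand, and on the strand opposite to it. The stretch shown around it is chr1:93909446-93909474:
GCLM: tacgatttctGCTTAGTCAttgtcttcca
TXNRD1 has 2 elements in a first promoter, within the stretches chr12:104215670-104215698 and chr12:104215761-104215789, and 1 in a second, within chr12:104286920-104286948. The first element lies on the strand of the gene and the others on the opposite one:
TXNRD1 first promoter, far element: acacgggctaTGACTTCGCtgttgtcacc
TXNRD1 first promoter, near element: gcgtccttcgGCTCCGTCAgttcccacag
TXNRD1 second promoter: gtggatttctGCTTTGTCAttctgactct
The promoters of AKR1C1, AKR1C2, AKR1C3, NQO1 and SRXN1 hold no such run of letters in this window. Those of HMOX1, AKR1B10 and SLC7A11 were not searched here.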

How the data were processed

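Each array was scanned and read with Agilent Feature Extraction 10.7.3.1, which per the file headers wrote background-corrected, dye-normalized intensity values for both channels together with each spot's log10 ratio (red over green, Cy5 to Cy3) and its error. The deposited log10 ratio was multiplied to the log2 scale. The values deposited for the whole series equalled the scanner ratios, with a largest difference of 0. Cells were transfected with Lipofectamine RNAiMAX and RNA was extracted with Trizol per the labels. Spots with an outlier flag, 81 to 178 per array, were left out, repeat spots of 1 probe entered as their mean, and a gene with several probes took the values of the probe brightest on average in Cy3 and Cy5 (58201 probes, 43317 genes). Where 1 channel was dim, a fold was given as a bound, the bright signal over the higher of the dim probe's own signal and the lowest signal well above background in that channel. In the mock channels the bound was formed alike from scaled levels, averaged over each pair first.

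The mock levels were compared with limma 3.58.1 (R 4.3.3). The design had listed the 8 mock channels as samples. Since the bulk of bright probes differed by about the spot noise between paired channels, each pair was averaged and counted once. That choice was made after seeing the data, and the fit on 8 channels is an alternative. Data simulated for FaDu against PC3 over 21496 genes gave a slope of 1.00 on the true difference with 200 changed genes, of which 0% were called, and 0.997 with 8000 changed genes, of which 84.3% were called, at 3.28% false calls. In the simulation a call required an adjusted p under 0.05 only, without the difference of at least 1, so these shares are not the rates of the calls reported here. With 4 samples, calls therefore need many changed genes, and the precision is limited by the number of arrays.

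The members, gene lists and alternatives were chosen with earlier results of these data known. Genes named from the other lists were the 3 with the largest ratio past the fold in both channels on each array, and the regulators NFE2L2, KEAP1 and BACH1. GCLC, GSR, CBR1, CBR3 and ATF4 (beside its targets) were named beyond this rule, after their values were seen. Tables were handled with pandas 2.3.3 and numpy 2.4.6 under Python 3.11.15.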

Additional observations from a re-analysis of the deposited data

Results flagged for a closer look

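Transfection with miR-99a-3p was done in both PC3 and FaDu cells, and AKR1C3 and TXNRD1 went in opposite directions, each by more than the scanner error of its ratio. AKR1C3 had a log2 ratio of 0.46 in PC3 and -2.23 in FaDu. TXNRD1 had a log2 ratio of 0.36 in PC3 and -1.33 in FaDu. The difference was not tested, as there was 1 array per line. No group held 4 or more mock samples once paired channels were counted once, so no sample was examined as an outlier.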

How the results depend on the processing

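The 6 genes below mock in FaDu cells with miR-99a-3p kept their direction under every alternative run, as did the 3 others. The count of genes past the fold there, 7, was 3 at a log2 threshold of 2. In PC3 cells with miR-150-5p the 2 genes past the fold became 0 with normexp and loess or with the mean of the line's mock channels as control, 1 with the mean of all detected probes and 0 at a threshold of 2. In PC3 cells with miR-150-3p the 2 became 1 with normexp and loess, 1 with the mean mock control and 0 at a threshold of 2. In PC3 cells with miR-100-3p the 1 became 0 where both channels had to be above background, 0 with the mean mock control and 2 at a threshold of 0.58. At that threshold the 0 genes of PC3 cells with miR-99a-3p became 1, those of FaDu cells with miR-99a-5p 2 and those of PANC-1 cells with si-FOXQ1-1 2. AKR1B10 in FaDu cells with miR-99a-3p fell to 0.61 with normexp and loess, 0.77 as the mean of its probes and 0.59 with the mean mock control, and the cause was not tested.

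The median of the detected genes in PANC-1 cells with si-FOXQ1-2, 0.07, became 0.25 with no filter on dim probes and -0.02 with normexp and loess, and the other 7 medians kept their sign under every alternative run. The genes called between mock cells numbered 5, 4 and 6 for FaDu against PC3, PANC-1 against PC3 and PANC-1 against FaDu, and leaving out each mock channel in turn gave 5 to 5, 4 to 5 and 6 to 6. Each time the other channel of the pair stayed in, so no mock sample was left out and variation between samples was not probed. The fit on 8 channels gave 5, 4 and 6. AKR1B10 lost both its calls with normexp, loess and Aquantile (-0.98 and -0.85), and the cause was not tested. TXNRD1 in PANC-1 against PC3 gained a call with quantile normalization (-1.06) and without the mock channel of si-FOXQ1-1 (-1.05), from -0.96. The probe of AKR1C1 dim in PC3 gave -0.51 for PANC-1 against PC3, not called. No paired analysis was possible because there was a single array for every transfection, and a block for the slide could not be fitted because there was 1 slide.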

Other observations

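Carbonyl-reducing enzymes had ratios on both sides of mock in FaDu cells with miR-99a-3p. AKR1B10 at 1.09, AKR1B15 at 1.01, CBR1 at 1.09 and CBR3 at 1.60 were above mock on the array on which AKR1C1, at -3.42, and AKR1C3, at -2.23, were below it. On the 6 arrays of PC3 and PANC-1 cells CBR3 lay between -0.79, with miR-150-5p, and -0.10, with miR-150-3p. These genes were picked out after their values were seen, and the values rest on 1 array each.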
